A study of Mus musculus with 9 samples.

Results

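The 28 genes described here encode 20 enzymes that build cholesterol, 7 proteins that form or control the SREBP transcription factors, and 1 sterol carrier. They were taken by gene symbol from a count table of 48709 genes, measured in the duodenum, where the small intestine begins. All 28 were found and all 28 had more than 100 reads over the 9 libraries, the limit that 15002 genes of the table passed. The libraries came from 10-week-old male C57Bl6 mice killed 6 h after an oral dose of 1,25D3 (calcitriol, the active form of vitamin D), of 1,25D3 together with ZK, or of vehicle, from 3 mice each. The compound ZK (ZK168281) is a 1,25D3 analog that antagonizes the vitamin D receptor (VDR), and no group received ZK alone. The mice carried no engineered allele, whole duodenal tissue was sequenced, and the dose given to these mice is not given in the sources used here. Each label also carries a number from 1 to 3, which is not said to mark a litter, a day or a batch and which matches the order of the column headers in the table (1 to 3, 4 to 6 and 7 to 9).

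Cells make cholesterol from acetyl-CoA. Acetyl-CoA units are joined to HMG-CoA, which is reduced to mevalonate, and mevalonate is phosphorylated and decarboxylated to isoprenoid units that are assembled into farnesyl diphosphate and then squalene. Squalene is oxidized and closed into lanosterol, the first sterol, and a series of demethylations, reductions and double bond shifts turns lanosterol into cholesterol. The genes of this route are controlled together by SREBP-2. SREBP precursors sit in the membrane of the endoplasmic reticulum bound to the escort protein SCAP. When membrane sterols are low, SCAP carries them to the Golgi, where the site-1 and site-2 proteases release the active factor, and when sterols are high, INSIG proteins retain SCAP in the endoplasmic reticulum. In the small intestine, enterocytes both make cholesterol and take it up from the diet.

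The label check decided how the groups are named. VDR induces *Cyp24a1*, whose product breaks down 1,25D3. Its level, in CPM after scaling of library sizes by the trimmed mean of M-values (TMM CPM), was 7537, 6425 and 7633 in number 2 (labelled vehicle 2, 1,25D3 2 and 1,25D3 and ZK 2). The other 6 libraries were at 2.47 to 9.13 TMM CPM, whatever treatment their labels gave. *Cyp24a1* therefore goes against the treatment labels, and libraries are called by their labels throughout (the 3 with number 2 are the "number 2 libraries"). The libraries held 22561400 to 41207455 counts. Counts of pairs of libraries were compared by chi-square per gene, for which sampling noise alone gives about 1. The mean chi-square was 1.82 to 5.48 among the number 1 libraries, 3.68 between the libraries labelled vehicle 2 and 1,25D3 and ZK 2, and 4.92 between vehicle 3 and 1,25D3 and ZK 3, by label. The library labelled 1,25D3 3 stood apart from the other number 3 libraries (118 and 112) and close to the number 1 libraries (1.96 to 5.39), and the library labelled 1,25D3 2 differed from the other number 2 libraries by 95.9 and 103. The p-values by number given below thus measure the spread between some libraries that were nearly alike, and those by treatment label rest on labels that *Cyp24a1* contradicts.

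Markers of other cell types also differed with the number. The sum of 13 pancreatic acinar markers, all of them detected, was 118 to 131 TMM CPM in the number 1 libraries and 126 in the library labelled 1,25D3 3. The sum reached 3963 and 3888 in the other number 3 libraries (vehicle 3 and 1,25D3 and ZK 3 by label), 9198 in the library labelled 1,25D3 2, and 44114 and 42501 in the libraries labelled vehicle 2 and 1,25D3 and ZK 2. The sum of 5 markers of Brunner glands, the mucus glands of the duodenal wall, of which *Bpifb1* was at 0 in all 9 libraries, was 18.8 to 19.8 in number 1, 4890 to 6024 in number 2 and 19.3 to 185 TMM CPM in number 3. The defining markers of the duodenal epithelium were present in all 9 libraries, with 12 enterocyte markers summing to 45266 to 62818 TMM CPM. The 12 did not move together. By the test described below, 4 were called lower and 2 higher in number 2 than in number 1 (8.25% and 12.2% of all genes). *Sis* was at 3430 to 3680 in number 1 and 814 to 1249 in number 2, and *Ada* at 1130 to 1178 and 4008 to 4099 TMM CPM. In whole tissue, fewer cells of a type and less RNA per cell cannot be told apart.

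**Figure D1:**
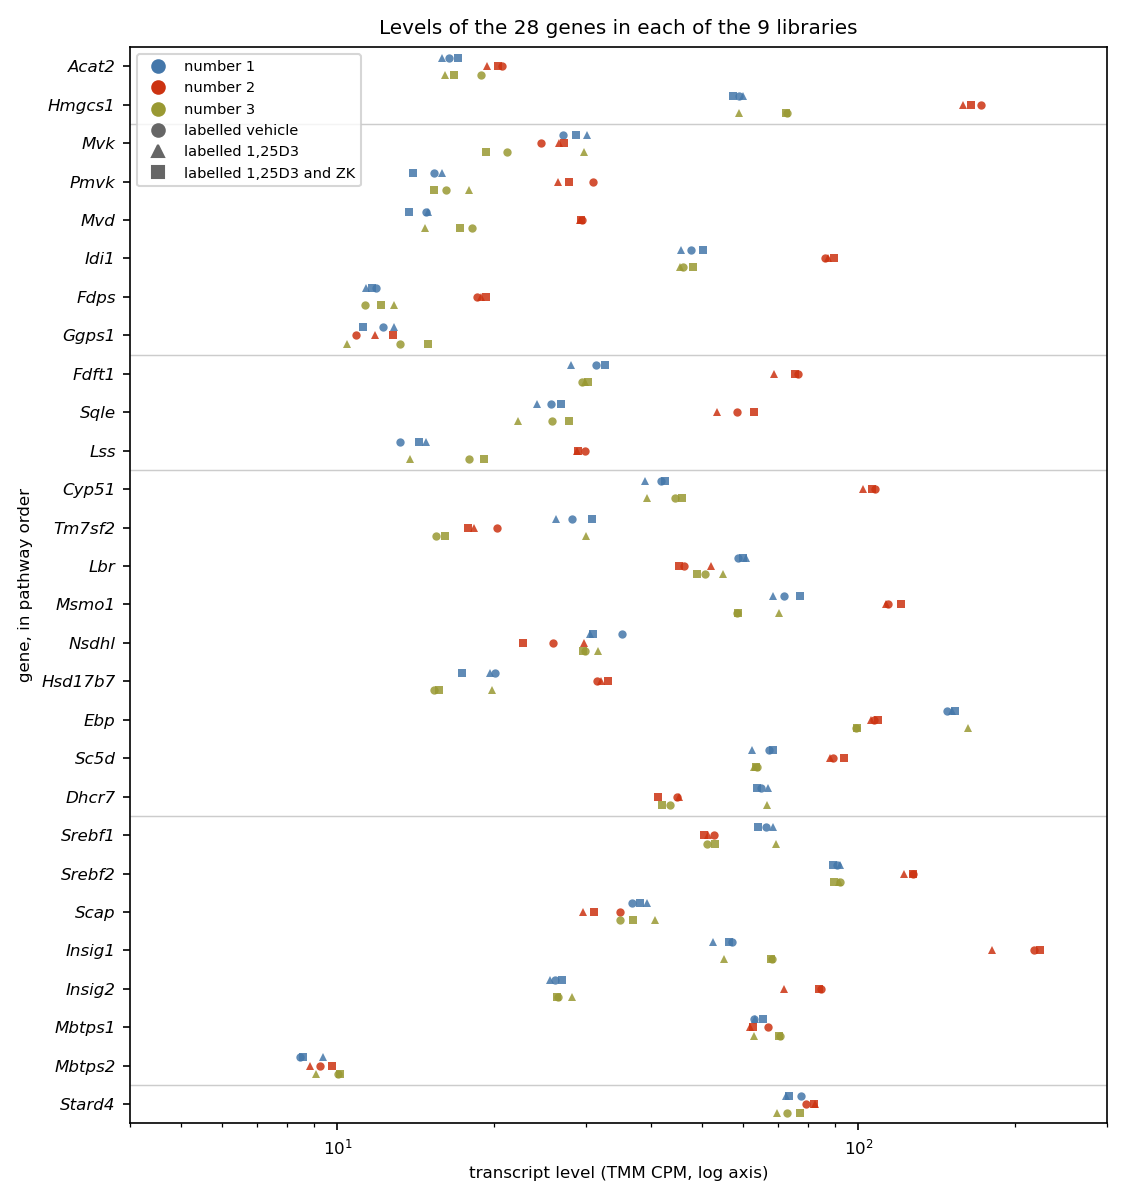
Transcript level (TMM CPM, log axis) of the 28 genes in pathway order. Each point is 1 library, coloured by the number on the label and shaped by the treatment on it. The number 2 points lie to the right of all others for 17 genes, among them *Hmgcs1* at 159 to 172 against 57.3 to 72.9 TMM CPM.

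The 28 genes covered a wide range of levels. Per kilobase of annotated exon, the highest mean levels over the 9 libraries were those of *Ebp* (54.6 TMM CPM per kb), which encodes the sterol isomerase, *Insig1* (35.2) and *Hmgcs1* (21.2). The lowest were those of *Mbtps2* (0.918), which encodes the site-2 protease, and *Lss* (1.86), which encodes lanosterol synthase, and long annotated exons (10105 and 10787 bases) lower this value for both. Across the libraries, most of the genes were highest in number 2, some were low in number 2 and in the libraries labelled vehicle 3 and 1,25D3 and ZK 3, and a few were at similar levels in all 9.

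Of the 28 genes, 17 had all 3 number 2 libraries above each of the other 6, a pattern shown by 16.2% of all genes tested, and 1 (*Scap*) had all 3 below, as did 14.7% of all genes. Since libraries can be compared by number only with the caution given above, the edgeR quasi-likelihood test was used, and a call needed an adjusted p below 0.05 and a log2 fold change beyond 0.58 in either direction. By this test 13 of 28 genes were higher in number 2 than in number 1 (1830 of 15002 genes, 12.2%, were called higher in this comparison) and 0 were lower (8.25% of all genes were called lower, and 20.4% in either direction). With no minimum fold, 16 were higher (19.6% of all genes) and 6 lower (18.7%). The median log2 fold change was 0.46 over the 28 genes and 0.03 over all genes tested. For the 20 enzymes alone it was 0.69, with 11 called. Against number 3, 13 of 28 were lower in number 3 than in number 2 (6.81% of all genes were called lower and 4.53% higher), with a median of -0.49 against 0.01 over all genes. Both comparisons share the number 2 libraries, so their values are given side by side and are not independent.

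**Figure D2:**
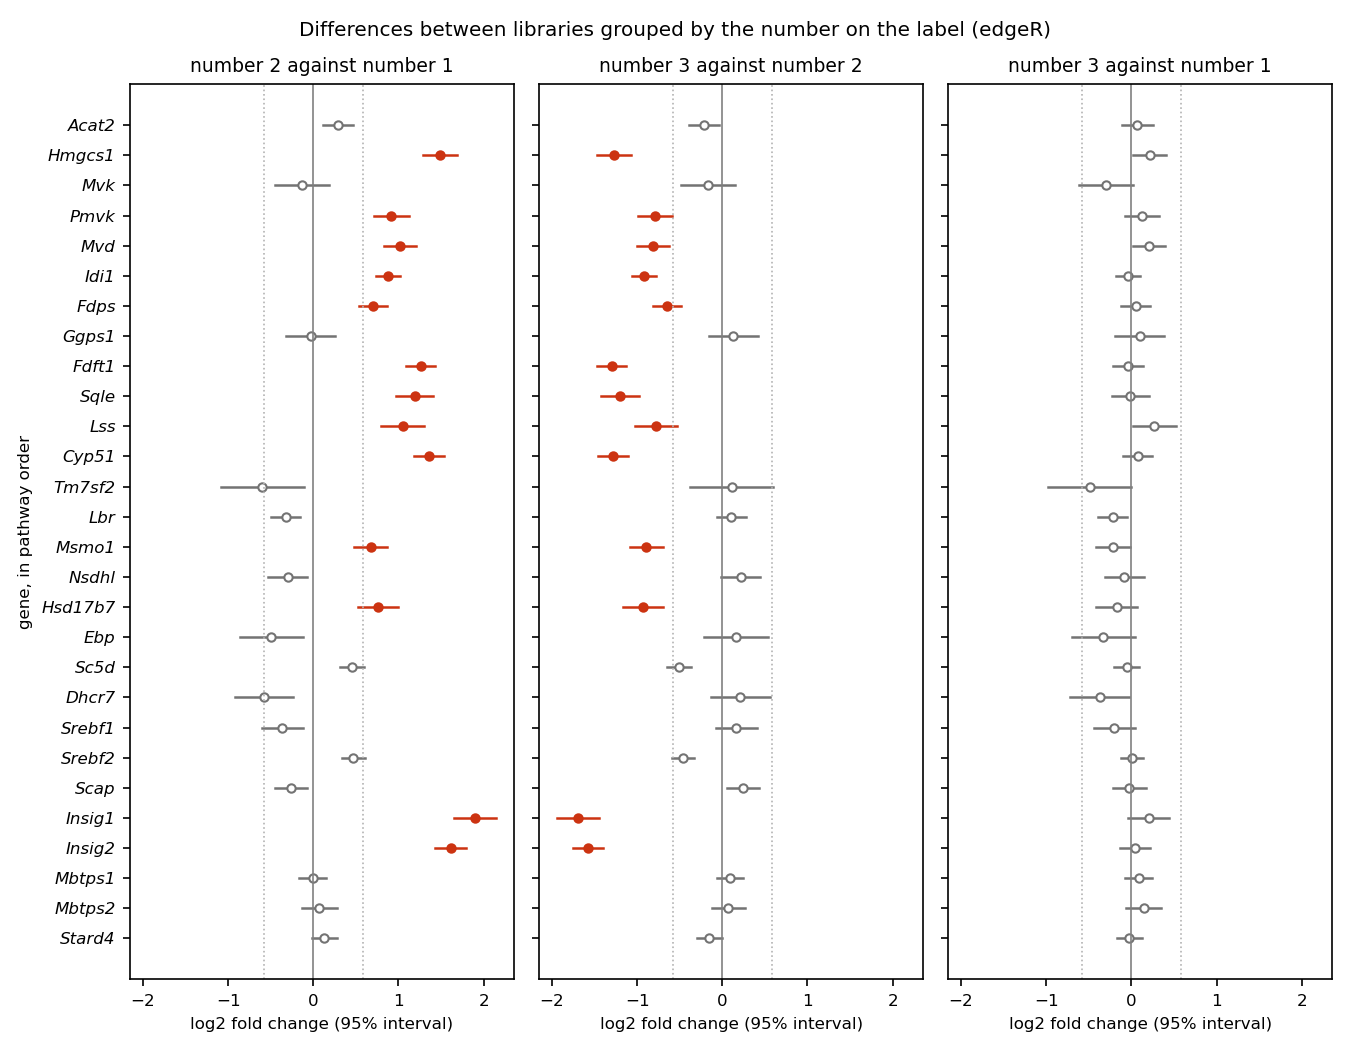
Log2 fold change with its 95% interval for each of the 28 genes between libraries grouped by the number on the label. Filled red points were called (adjusted p below 0.05 and outside the dotted lines at 0.58), and 13 genes were called in each of the left and middle panels and 0 in the right panel.

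Promoter stretches of 5 of these genes are shown to set genes called higher in number 2 (*Hmgcs1*, *Mvd*, *Insig1* and *Insig2*) beside 1 that was not called (*Ebp*). They are RefSeq sequences of GRCm38.p6, upstream of the annotated start and outside the gene in GENCODE, given 5′ to 3′ on the strand of the gene. Capitals mark CCAAT on either strand (ATTGG), the letters bound by NF-Y, a factor that acts beside SREBP at sterol genes, and in *Hmgcs1* also TCACCCCAC, letters of a sterol regulatory element. Of the 3 annotated starts of *Insig2*, the 1 with CCAAT in the 250 bases upstream is shown, and the other 2 had none. The *Insig1* stretch is longer (191 bases against 180) and reaches farther upstream, where its only CCAAT match lies. The stretches are thus not like windows, and their matches do not stand for every start of these genes.
*Hmgcs1* (chr13:119690171-119690350, plus strand): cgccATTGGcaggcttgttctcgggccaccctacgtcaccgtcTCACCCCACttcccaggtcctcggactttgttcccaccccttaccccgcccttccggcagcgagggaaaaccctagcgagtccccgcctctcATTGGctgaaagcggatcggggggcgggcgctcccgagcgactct
*Mvd* (chr8:122443423-122443602, minus strand): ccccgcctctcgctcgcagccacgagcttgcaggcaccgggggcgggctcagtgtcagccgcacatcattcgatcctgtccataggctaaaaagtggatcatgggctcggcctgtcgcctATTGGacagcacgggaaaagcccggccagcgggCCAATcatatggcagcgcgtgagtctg
*Insig1* (chr5:28071172-28071362, plus strand): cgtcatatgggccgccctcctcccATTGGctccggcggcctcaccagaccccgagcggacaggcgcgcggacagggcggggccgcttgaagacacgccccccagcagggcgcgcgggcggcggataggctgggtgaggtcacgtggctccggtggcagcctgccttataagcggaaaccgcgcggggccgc
*Insig2* (chr1:121332590-121332769, minus strand): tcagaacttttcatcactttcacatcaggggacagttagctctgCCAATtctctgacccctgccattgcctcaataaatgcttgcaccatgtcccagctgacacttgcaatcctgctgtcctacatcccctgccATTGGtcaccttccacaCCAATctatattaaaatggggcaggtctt
*Ebp* (chrX:8193513-8193692, minus strand): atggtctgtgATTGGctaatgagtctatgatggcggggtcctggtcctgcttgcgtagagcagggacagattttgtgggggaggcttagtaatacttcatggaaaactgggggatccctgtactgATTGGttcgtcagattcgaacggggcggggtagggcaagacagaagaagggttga

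Promoters of 24 of the 28 genes were in the RefSeq table, and *Fdft1*, *Sqle*, *Fdps* and *Stard4* were not. CCAAT on either strand was found in the 250 bases upstream of at least 1 annotated start in 20 of the 24 genes (83.3%). It was found in 37.5% of the 27025 genes of the RefSeq table. These were not limited to genes that passed the read limit, as all of the 28 did, so the shares are not of like sets. CCAAT was present in 10 of the 10 genes with a promoter that were called higher in number 2, and in 10 of the 14 that were not called. *Acat2*, *Scap*, *Mbtps1* and *Mbtps2* had none. The GC box GGGCGG, on either strand, was found in 21 of 24 genes (87.5%) and in 35.4% of the RefSeq genes. TCACNCCAC, on either strand, was found in *Hmgcs1* alone among the 24 (starting 137 bases before the gene start) and in 1.22% of the RefSeq genes. CCAAT was thus found in genes that were called and in genes that were not, such as *Ebp* with its 2 matches. These are matches of letters, and binding was not measured.

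The pathway opens with HMG-CoA formation. *Hmgcs1* encodes HMG-CoA synthase of the cytosol, which joins acetoacetyl-CoA and acetyl-CoA. Its level was 59.0, 60.1 and 57.3 TMM CPM in number 1, 172, 159 and 165 in number 2, and 72.9, 59.1 and 72.5 in number 3, each time in the order of labels used for *Cyp24a1*, which is kept below. The number 2 libraries did not overlap the others, and the difference between number 2 and number 1 was 2.81-fold (log2 fold change 1.49 ± 0.09, SE, edgeR adjusted p = 3.69e-06). *Acat2*, the thiolase that makes acetoacetyl-CoA, was at 15.9 to 17.0 TMM CPM in number 1, 19.4 to 20.7 in number 2 and 16.1 to 18.8 in number 3. Its number 2 libraries were also above the rest, but its log2 fold change of 0.29 against number 1 (edgeR adjusted p = 0.0174) was under the minimum for a call.

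From mevalonate to isoprenoids, 4 of 6 genes were higher in number 2 than in number 1. *Idi1*, which encodes the isomerase that makes dimethylallyl diphosphate, was at 47.7, 45.6 and 50.3 TMM CPM in number 1, 86.4, 87.5 and 89.7 in number 2 and 46.0, 45.5 and 48.1 in number 3. The 6 libraries outside number 2 lay within 4.77 TMM CPM of each other, and the difference between number 2 and number 1 was 1.84-fold (edgeR adjusted p = 1.16e-05). *Mvd*, the mevalonate diphosphate decarboxylase, was at 13.7 to 14.9 in number 1, 29.2 to 29.5 in number 2 and 14.7 to 18.1 TMM CPM in number 3. Its 3 number 2 libraries were the closest to each other of all genes in this step (SD 0.162 around a mean of 29.4 TMM CPM, n = 3). *Pmvk*, the second kinase of the route, was 1.89-fold higher in number 2 than in number 1, and *Fdps*, which makes farnesyl diphosphate, 1.62-fold (edgeR adjusted p = 8.06e-05 and 0.000135). *Mvk*, the first kinase, and *Ggps1*, which takes farnesyl diphosphate away to geranylgeranyl diphosphate, did not follow. *Mvk* was at 27.1 to 30.1, 24.6 to 27.2 and 19.2 to 29.7 TMM CPM in numbers 1, 2 and 3, and *Ggps1* at 11.2 to 12.8, 10.9 to 12.8 and 10.4 to 14.9, so for both genes the numbers overlapped.

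All 3 genes of the steps from squalene to lanosterol were higher in number 2. *Fdft1*, which encodes squalene synthase, the first enzyme that commits isoprenoids to sterols, was at 31.3, 28.1 and 32.7 TMM CPM in number 1, 76.6, 68.7 and 75.4 in number 2 and 29.5, 29.9 and 30.3 in number 3. The number 1 and number 3 ranges overlapped and number 2 lay far above both, with a 2.40-fold difference from number 1 (log2 fold change 1.26 ± 0.08, SE, edgeR adjusted p = 4.21e-06). *Sqle*, squalene epoxidase, was at 25.7, 24.1 and 26.9 in number 1, 58.4, 53.6 and 62.9 in number 2 and 25.8, 22.2 and 27.8 TMM CPM in number 3, a 2.28-fold difference between number 2 and number 1 (edgeR adjusted p = 2.5e-05). *Lss*, lanosterol synthase, was at 13.2 to 14.8, 28.8 to 29.9 and 13.8 to 19.1 TMM CPM in numbers 1, 2 and 3. Its libraries labelled vehicle 3 and 1,25D3 and ZK 3, at 17.9 and 19.1, were above those of number 1 and below those of number 2.

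Between lanosterol and cholesterol the genes divided. Of 9 genes, 3 were higher in number 2 than in number 1, and the median log2 fold change of the step was -0.30. *Cyp51*, the lanosterol 14-demethylase that opens the step, was at 41.7, 39.0 and 42.5 TMM CPM in number 1, 108, 102 and 106 in number 2 and 44.5, 39.2 and 45.9 in number 3, 2.56-fold higher in number 2 than in number 1 (edgeR adjusted p = 2.87e-06). *Msmo1*, the C4-methyl oxidase, was at 68.5 to 77.1, 113 to 121 and 58.6 to 70.4, and *Hsd17b7*, a 3-ketosteroid reductase of the same demethylation steps, at 17.3 to 20.1, 31.5 to 33.0 and 15.3 to 19.8 TMM CPM in numbers 1, 2 and 3. Number 2 did not overlap the other numbers in any of these 3 genes. *Sc5d*, the C5-desaturase, was also above the rest in number 2 (88.1 to 93.7 against 62.4 to 68.5 TMM CPM in the other 6), with a log2 fold change of 0.45 that passed the p limit (edgeR adjusted p = 0.000628) and not the fold limit.

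The other 5 genes of this step had a log2 fold change below 0. *Ebp*, which shifts the C8 double bond, was at 148, 151 and 153 TMM CPM in number 1, 107, 106 and 109 in number 2, and 98.8, 163 and 99.2 in number 3. The number 2 libraries lay below all of number 1, but so did the libraries labelled vehicle 3 and 1,25D3 and ZK 3, while the library labelled 1,25D3 3 was the highest of the 9. *Dhcr7*, which carries out the last reduction to cholesterol, divided the libraries in the same way: 65.1, 67.0 and 64.0 in number 1, 44.8, 45.2 and 41.2 in number 2 and 43.5, 66.9 and 41.9 TMM CPM in number 3. *Tm7sf2*, one of the sterol C14-reductases, was at 28.1, 26.2 and 30.9, then 20.2, 18.2 and 17.8, then 15.5, 30.0 and 16.1 TMM CPM. For all 3 genes, then, 5 libraries were low and 4 were high, and the 4 were number 1 and the library labelled 1,25D3 3. The log2 fold changes between number 2 and number 1 were -0.49 for *Ebp*, -0.58 for *Dhcr7* and -0.60 for *Tm7sf2* (edgeR adjusted p = 0.0415, 0.0156 and 0.0525), and none was a call.

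*Dhcr7* missed a call by the fold limit and *Tm7sf2* by the p limit, and each was called lower under some other settings and not under others. *Lbr*, the C14-reductase that is also a receptor for lamin B in the nuclear envelope, was at 58.8 to 61.0, 45.2 to 52.1 and 48.9 to 55.0 TMM CPM in numbers 1, 2 and 3, and *Nsdhl*, which removes the C4 carboxyl group, at 30.6 to 35.2, 22.7 to 29.7 and 29.6 to 31.7. The ranges of number 2 and number 3 overlapped for *Lbr* and, by less than 1 TMM CPM, for *Nsdhl*. In all, 6 of the 28 genes were lower in each of these 5 libraries than in each of the other 4 (*Tm7sf2*, *Lbr*, *Nsdhl*, *Ebp*, *Dhcr7* and *Srebf1*), against 20.7% of all genes, and 5 were higher (*Hmgcs1*, *Mvd*, *Lss*, *Cyp51* and *Insig1*), against 18.6%. Both shares are near those of all genes, and this grouping of libraries was made after their values were seen.

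The INSIG genes showed the largest differences of the 28. *Insig1*, itself a target of SREBP-2 whose protein retains SCAP, was at 57.2, 52.6 and 56.4 TMM CPM in number 1, 218, 181 and 223 in number 2 and 68.2, 55.2 and 68.0 in number 3. The lowest number 2 library was thus 112 TMM CPM above the highest of the other 6, and the difference between number 2 and number 1 was 3.74-fold (log2 fold change 1.90 ± 0.11, SE, edgeR adjusted p = 3.17e-06). *Insig2*, the second INSIG gene, was at 26.1, 25.6 and 27.0 in number 1, 84.7, 72.1 and 84.1 in number 2 and 26.5, 28.2 and 26.4 TMM CPM in number 3, a 3.06-fold difference (log2 fold change 1.61 ± 0.08, SE, edgeR adjusted p = 1.06e-06). In both genes the library labelled 1,25D3 2 was the lowest of number 2. Per kilobase of exon, *Insig1* was above *Insig2* (35.2 against 12.8 TMM CPM per kb, means over the 9 libraries).

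The factors that INSIG proteins control moved less. *Srebf2*, which encodes SREBP-2, was at 90.9, 92.1 and 89.3 TMM CPM in number 1, 127, 123 and 127 in number 2 and 92.2, 91.9 and 89.6 in number 3. Number 2 was above all other libraries, by a log2 fold change of 0.47 from number 1 (1.39-fold, edgeR adjusted p = 0.000345), which is under the fold limit. *Srebf1*, which encodes SREBP-1a and SREBP-1c, the forms tied more to fatty acid synthesis, was at 66.5, 68.5 and 64.1 in number 1, 52.7, 51.5 and 50.4 in number 2 and 51.1, 69.4 and 53.1 TMM CPM in number 3, with a log2 fold change of -0.36 between number 2 and number 1 (edgeR adjusted p = 0.0238). The SREBP genes thus differed from each other in sign, and neither was a call. *Scap* was the 1 gene with number 2 below all others (29.5 to 34.8 against 34.9 to 40.7 TMM CPM), by a margin of 0.114 TMM CPM. The protease genes were level: *Mbtps1* (site-1 protease) was at 63.2 to 65.7, 61.8 to 66.9 and 63.0 to 70.6, and *Mbtps2* at 8.48 to 9.38, 8.85 to 9.76 and 9.08 to 10.1 TMM CPM in numbers 1, 2 and 3.

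*Stard4*, which encodes a soluble carrier that moves sterol between membranes and is a known SREBP-2 target, was at 77.5, 72.6 and 73.6 TMM CPM in number 1, 79.4, 82.6 and 82.2 in number 2 and 72.8, 69.7 and 77.1 in number 3. Number 2 was above the rest by a margin of 1.88 TMM CPM, with a log2 fold change of 0.13 from number 1 (95% interval -0.02 to 0.27, edgeR adjusted p = 0.152).

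Between number 3 and number 2, the genes called lower in number 3 had log2 fold changes from -0.65 (*Fdps*) to -1.70 (*Insig1*). The 2 INSIG genes were again the largest, with -1.70 ± 0.11 for *Insig1* and -1.57 ± 0.08 for *Insig2* (SE, edgeR adjusted p = 7.08e-06 and 1.3e-06). They were followed by *Fdft1* (-1.30), *Cyp51* (-1.28) and *Hmgcs1* (-1.27). *Lss* (-0.78) was called in all settings but 1. With the library labelled 1,25D3 2 as the lone library of number 2, that is, without the number 2 libraries of higher acinar sum, 12 genes were called lower and *Lss* was not (edgeR adjusted p = 0.0593). This setting was chosen after seeing the data and assumes that the lone library varies like the other groups.

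Between number 3 and number 1, edgeR called 0 of 28 genes and 0 of 15002 genes (0%). At an unadjusted p under 0.05 were 7 of the 28 and 3940 of all genes, which are similar shares. DESeq2 called 0 of the 28 (6 at an unadjusted p below 0.05) and 398 of all genes (3934 at that p). Calls by limma voom were 0 of the 28 (8 at an unadjusted p under 0.05) and 0 of all genes (4276 at that p). The median log2 fold change of the 28 was -0.02, against 0.01 over all genes. That count of 0 rests on the library labelled 1,25D3 3, which is close to number 1. Without it, 3 of the 28 were lower in number 3 than in number 1 (7.74% of all genes were called lower and 11.4% higher): *Tm7sf2* (-0.85 ± 0.08), *Dhcr7* (-0.61 ± 0.06) and *Ebp* (-0.61 ± 0.04, SE, edgeR adjusted p = 9.21e-06, 6.42e-06 and 1.62e-06). None of the genes called higher in number 2 was called in number 3 in this setting. *Insig1* was at 68.2 and 68.0 TMM CPM in the remaining number 3 libraries, above the 52.6 to 57.2 of number 1, and *Fdft1* at 29.5 and 30.3 was within the 28.1 to 32.7 of number 1.

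**Figure D3:**
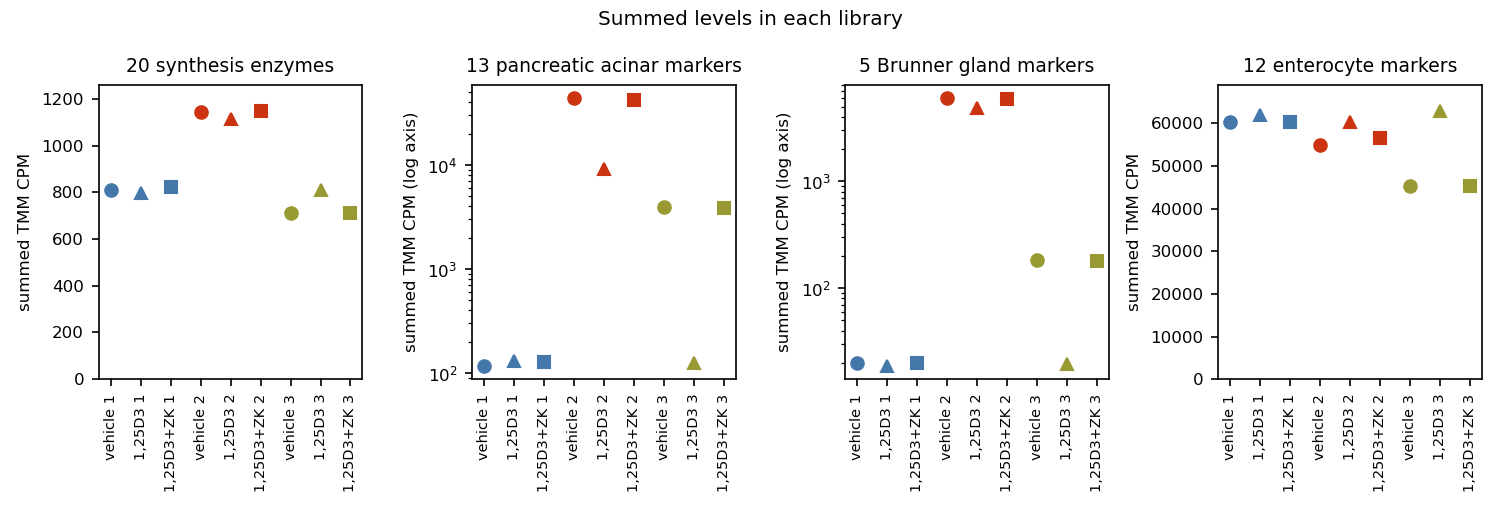
Summed TMM CPM in each of the 9 libraries for the 20 synthesis enzymes, 13 pancreatic acinar markers, 5 Brunner gland markers and 12 enterocyte markers (log axes for acinar and Brunner gland). The enzyme sum is 1116 to 1148 in number 2 and 712 to 822 elsewhere, while the acinar sum within number 2 is 9198 in the library labelled 1,25D3 2 and 42501 and 44114 in the others.

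The markers of other cell types were set beside these values. The 20 enzymes summed to 799 to 822 TMM CPM in number 1, 1116 to 1148 in number 2 and 712 to 811 in number 3. Within number 2, the library labelled 1,25D3 2 had an acinar sum of 9198 and the others 44114 and 42501, and their enzyme sums were 1116, 1145 and 1148 TMM CPM. *Hmgcs1* in the same libraries was at 159, 172 and 165, and *Insig1* at 181, 218 and 223 TMM CPM. The libraries labelled vehicle 3 and 1,25D3 and ZK 3, with acinar sums of 3963 and 3888, had enzyme sums of 712 and 713, below those of all number 1 libraries. Within number 2 the acinar sum differed by up to 4.80-fold and the enzyme sum, which includes genes that were not called, by up to 1.03-fold. The library labelled 1,25D3 2 was the lowest of number 2 for all 13 called genes but *Idi1*, *Fdps* and *Hsd17b7*. *Insig2*, for example, was at 72.1 there against 84.7 and 84.1 TMM CPM. The part of acinar cells in these values was not tested. In the libraries labelled vehicle 3 and 1,25D3 and ZK 3, acinar sums 29.7-fold to 30.3-fold above the highest of number 1 stood beside lower enzyme sums. These sums mix directions, since *Ebp*, *Dhcr7* and *Tm7sf2* were below every number 1 library there. Of the genes called higher in number 2, *Hmgcs1*, *Mvd*, *Lss*, *Cyp51* and *Insig1* were above every number 1 library there. *Hmgcs1*, for example, was at 72.9 and 72.5 against at most 60.1 TMM CPM. *Msmo1* and *Hsd17b7* were below, and the rest were neither in both libraries. When the acinar and Brunner gland markers were left out before scaling (a setting chosen after seeing the data), all 13 genes called higher in number 2 than in number 1 were called again. This setting drops only the marker genes, so any reads of the 13 genes from those cells stay in the counts. It bears on the scaling alone, where TMM already trims genes with extreme differences, so it could change little. Whether those cells had a part in the levels was not tested. The Brunner gland sum was 4890 to 6024 TMM CPM in number 2 and 18.8 to 19.8 in number 1. It divided number 3, with 185 and 178 in the libraries labelled vehicle 3 and 1,25D3 and ZK 3 and 19.3 in 1,25D3 3. Like the enzyme sum, it was highest in number 2, but the enzyme sum was not raised in those number 3 libraries. The sum of 5 adipocyte markers was also highest in number 2 (22.2 to 31.7 TMM CPM against 9.25 to 11.8 elsewhere). *Adipoq* was at 2.82 to 3.91 in number 2 and at most 0.0252 elsewhere. All 7 fibroblast markers were called higher in number 2 than in number 1, and they summed to 212 to 227 TMM CPM in number 2, 115 to 121 in number 1, 252 and 233 in the libraries of higher acinar sum in number 3, and 120 in the library labelled 1,25D3 3. The fibroblast sum was thus higher in the 5 libraries in which *Ebp*, *Dhcr7* and *Tm7sf2* were low than in the other 4. Enterocyte markers such as *Anpep*, *Lct* and *Fabp1* were lower in each of the same 5, as were 20.7% of all genes, and *Ada* was higher. *Anpep* was at 1597 to 3324 in these 5 and 5051 to 5082 TMM CPM in the other 4. The part of these cells in the results was not tested. The sum of 8 leukocyte markers was 2993 to 3445 in number 2 and 4495 to 5162 TMM CPM in the other libraries, most of it *Jchain*, a plasma cell gene (2736 to 3173 and 4230 to 4952). Of these 8 markers, *Jchain* was called lower in number 2 than in number 1, *Cd79a* and *Lyz2* were called higher and 5 were not called.

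Other genes of sterol and lipid metabolism were taken from 5 lists. For comparison with the counts below, 12.2% of all genes were called higher and 8.25% lower in number 2 than in number 1. Of 16 further genes, most of them sterol enzymes or SREBP-2 targets, 4 were higher and 1 lower in number 2 than in number 1. Their median log2 fold change was 0.06. *Stard5*, a relative of *Stard4* that is not a sterol enzyme, had the largest difference of this list (log2 fold change 1.53, edgeR adjusted p = 5.68e-06). It was at 24.3 to 24.8 TMM CPM in number 1, 60.0 to 78.4 in number 2 and 23.7 to 26.2 in number 3. Whether SREBP-2 controls *Stard5* was not tested. *Cyb5b*, a cytochrome b5 of the outer mitochondrial membrane, was the 1 gene called lower (-0.64, edgeR adjusted p = 0.00552).

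Of 15 genes of fatty acid synthesis that passed the read limit (16 listed), 5 were higher and 1 was lower, with a median of 0.42. *Scd1*, the stearoyl-CoA desaturase of liver, fat and other tissues, was at 1.91 to 2.57 TMM CPM in number 1, 32.7 to 36.3 in number 2 and 1.51 to 2.11 in number 3 (log2 fold change 3.92, edgeR adjusted p = 1.05e-07). It is also abundant in adipocytes, whose markers were higher in the same libraries, and their part was not tested. *Thrsp* (1.34) and *Scd2* (1.1) were also called higher, and *Acss2*, which makes acetyl-CoA from acetate, was called lower (-0.68, edgeR adjusted p = 0.000466).

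Of 14 genes of sterol esterification and sterol transport inside the cell, 5 were higher and 1 was lower (median 0.25). The sterol esterifying enzymes differed in sign: *Soat1*, found in most tissues, was at 13.4 to 14.8 in number 1, 53.7 to 65.0 in number 2 and 15.0 to 19.2 TMM CPM in number 3 (log2 fold change 2.09, edgeR adjusted p = 2.08e-06), and *Soat2*, the form of enterocytes and liver, was at 183, 176 and 177 in number 1, 81.5, 101 and 81.1 in number 2 and 95.4, 186 and 96.2 in number 3 (log2 fold change -1.02, edgeR adjusted p = 0.0073). *Soat2* was thus low in the same libraries as *Ebp* and *Dhcr7*. Unlike *Ebp*, it was lower in number 2 than in the libraries labelled vehicle 3 and 1,25D3 and ZK 3, except in the library labelled 1,25D3 2. *Gramd1c* and *Gramd1a*, which encode carriers of sterol from the plasma membrane, were called higher by log2 fold changes of over 1 (1.03 for *Gramd1a*).

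Of 8 genes of LXR, the receptor for oxysterols, and its targets, 4 were lower and 1 was higher (median -0.50). *Abcg8* (-1.11) and *Abcg5* (-0.999), which together form the sterol exporter of the enterocyte brush border, and *Abca1* (-1.03), which exports cholesterol to lipoproteins, were called lower, and *Mylip* (0.69), which marks lipoprotein receptors for degradation, higher. *Abca1* was at 54.2 to 55.8, 21.4 to 35.1 and 47.0 to 52.2 TMM CPM in numbers 1, 2 and 3, and the library labelled 1,25D3 2 was the highest of number 2. Of 15 genes that retain or degrade sterol enzymes or bind INSIG proteins, 0 were higher and 1, *Pgrmc2*, was lower (-0.59, edgeR adjusted p = 0.00919). The median of this list was -0.29. By edgeR, 12 of the 15 were at an unadjusted p under 0.05, a larger share than over all genes (7131 of 15002).

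**Figure D4:**
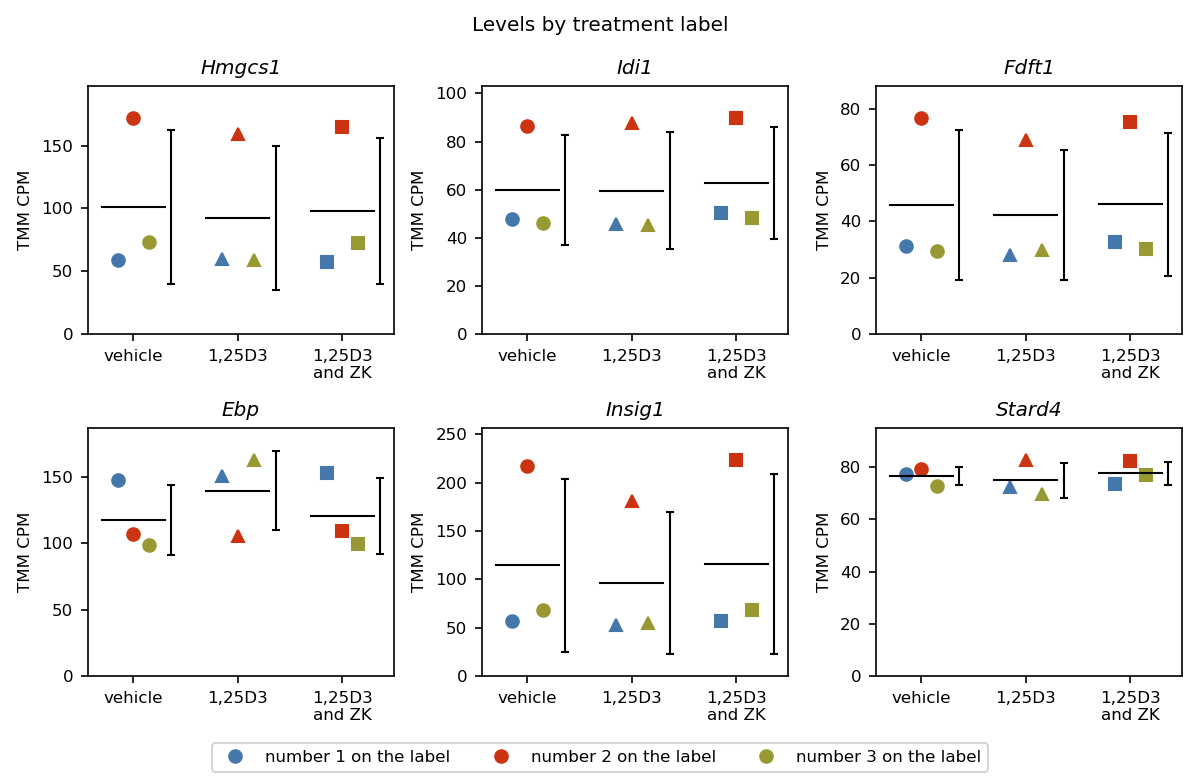
TMM CPM by treatment label for the gene of highest mean count in each of 6 roles. Points are single libraries coloured by the number on the label, the horizontal line is the mean and the bar 1 SD (n = 3 per label). In *Hmgcs1*, *Idi1*, *Fdft1* and *Insig1* the number 2 library is the highest in every treatment label, and the labels' means lie within each other's SD.

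The treatment labels name the groups of the study, but *Cyp24a1* goes against them. Comparisons of these labels therefore do not show whether 1,25D3 or ZK changed the 28 genes. Between the labels, edgeR called 0 of 28 genes and 0 of 15002 genes (0%) in each of the 3 comparisons. Of the 28, 0 had an unadjusted p below 0.05. The same counts for the 28 genes, 0 called and 0 below that p, came from DESeq2 and from limma voom. Over all genes, 135 were at an unadjusted p under 0.05 by edgeR for 1,25D3 against vehicle, 24 for 1,25D3 and ZK against vehicle and 147 for 1,25D3 and ZK against 1,25D3. The medians of the 28 genes were -0.03, 0.01 and 0.04 on the log2 scale, against -0.01, 0.00 and 0.01 over all genes. Each treatment label holds 1 library of each number, so the difference between numbers is part of the spread of every label.

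*Insig1* averaged 114 ± 89.6 TMM CPM (SD, n = 3) in libraries labelled vehicle, 96.1 ± 73.2 in those labelled 1,25D3 and 116 ± 93.0 in those labelled 1,25D3 and ZK. Its log2 fold change for 1,25D3 against vehicle was -0.25, with a 95% interval from -1.94 to 1.44. *Hmgcs1* averaged 101 ± 61.5, 92.7 ± 57.4 and 98.2 ± 58.2 TMM CPM under these labels (-0.13, -1.44 to 1.19 for 1,25D3 against vehicle). The intervals were narrower for the genes that varied less with the number. *Stard4* averaged 76.6 ± 3.38, 75.0 ± 6.77 and 77.6 ± 4.35 TMM CPM, with -0.03 (-0.27 to 0.21) for 1,25D3 against vehicle, 0.02 (-0.22 to 0.26) for 1,25D3 and ZK against vehicle and 0.05 (-0.19 to 0.29) for 1,25D3 and ZK against 1,25D3. *Ebp* averaged 118 ± 26.4, 140 ± 30.0 and 120 ± 28.8 TMM CPM, with 0.24 (-0.30 to 0.79), 0.03 (-0.51 to 0.58) and -0.21 (-0.76 to 0.33) in the same comparisons. The values of *Idi1* were -0.01, 0.06 and 0.07, and those of *Fdft1* -0.11, 0.01 and 0.13. For 1,25D3 and ZK against vehicle and against 1,25D3, *Hmgcs1* gave -0.04 and 0.08 and *Insig1* 0.02 and 0.27. All 18 of these intervals included 0.

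Within a number, the library labelled 1,25D3 was the lowest of the 3 in every number for 5 of 28 genes (*Acat2*, *Sqle*, *Cyp51*, *Sc5d* and *Insig1*), a pattern shown by 6.31% of all genes, and the highest for 2 of 28 (*Lbr* and *Dhcr7*), a pattern shown by 6.59%. The gaps were small where replicate libraries were nearly alike. *Cyp51*, for example, was at 39.0 in the library labelled 1,25D3 1 and at 41.7 and 42.5 TMM CPM in the other number 1 libraries. With the number as a further term in the fit, 0 of 28 genes were called in each of these comparisons.

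The counts were made from single reads of a stranded kit, but the strand setting of the counting is not given in the sources used here. Genes of the list that overlap a gene on the other strand are therefore uncertain, among them *Fdft1* (*Ctsb*), *Cyp51* (*Akap9*), *Ggps1* (*Arid4b*), *Lbr* (*Dnah14*) and *Srebf1* (*Rai1*). *Tm7sf2* overlaps *Vps51* on its own strand, and *Mbtps2* overlaps *Yy2*. *Insig1*, *Sqle*, *Msmo1*, *Hsd17b7*, *Pmvk*, *Ebp*, *Dhcr7* and *Stard4* overlap no annotated gene.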

How the data were processed

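RNA of the duodenum was sequenced in 9 libraries with a stranded mRNA kit and single reads. The authors demultiplexed with bcl2fastq 2.17.1.14, discarded adapter dimers, aligned reads to mm10 with Tophat and Bowtie2 and counted uniquely aligned reads per gene with HTSeq. The strand setting and the annotation release are not given in the sources used here. The table the authors deposited holds raw counts for 48709 Ensembl genes (22561400 to 41207455 per library). Each library kept the treatment and the number of its own label.

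Symbols and coordinates come from GENCODE M21 (GRCm38, which is mm10; 48349 genes matched). Genes above 100 reads in all (15002) were scaled by TMM and tested in R 4.3.3 with edgeR 4.0.16 (quasi-likelihood test, all 9 libraries, Benjamini-Hochberg over all genes tested), with 1 mean per treatment label or, separately, 1 mean per number. A call took an adjusted p below 0.05 and a log2 fold change beyond 0.58 in either direction, as in the study's methods. Alternatives included DESeq2 1.42.0, limma 3.58.1 (voom), other scalings and filters, and fits without 1 library at a time. The test was tried on simulated counts. The rule for names was all 28 genes, log2 fold changes between treatment labels for the gene of highest mean count per role, and up to 3 called genes per direction and pathway list. Some genes counted in the pathway lists are not reported here by name. The 28 genes, the lists and the tests were chosen with earlier results of these data known. Deviations from the label means had, for libraries of 1 number, correlations of 0.91 to 0.96 between 1,25D3 and ZK and vehicle for the 3 numbers, so the data, not the labels, pair these. Number 3 did not correlate between 1,25D3 and vehicle (-0.03) or between 1,25D3 and its co-treatment (-0.01).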

Additional observations from a re-analysis of the deposited data

How the results depend on the processing

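All 13 genes called higher in number 2 than in number 1 were called under every alternative run (13 to 15 genes, and 13 to 15 when each library was left out). Without a minimum fold 22 were called, 16 higher and 6 lower (19.6% and 18.7% of all genes). *Tm7sf2* and *Dhcr7*, both lower, were called in some settings, and *Sc5d* and *Srebf2* with total counts in place of TMM, which moved the median of all genes from 0.03 to 0.22 in this comparison. Between number 3 and number 2 the count was 12 to 15. Between number 3 and number 1 it was 0, and 0 to 3 when each library was left out, the 3 without the library labelled 1,25D3 3. The 0 calls between treatment labels stayed 0 under every alternative and every library left out, and with the replicate block, that is, the number as a further term, which changed no call (0).

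Single log2 fold changes between treatment labels turned sign with the library left out. The ranges for 1,25D3 against vehicle were -0.77 to 0.50 (*Hmgcs1*), -0.40 to 0.35 (*Idi1*), -0.66 to 0.48 (*Fdft1*), -1.09 to 0.62 (*Insig1*) and -0.11 to 0.019 (*Stard4*). For 1,25D3 and ZK against vehicle they were -0.64 to 0.57, -0.29 to 0.42, -0.54 to 0.60, -0.88 to 0.88 and -0.0233 to 0.057 for the same genes and -0.18 to 0.23 for *Ebp*, and *Insig1* was at -0.0236 with limma voom. For 1,25D3 and ZK against 1,25D3 they were -0.52 to 0.72 (*Hmgcs1*), -0.28 to 0.46 (*Idi1*), -0.43 to 0.67 (*Fdft1*) and -0.63 to 1.1 (*Insig1*). Between number 3 and number 2 the ranges were -0.25 to 0.28 (*Tm7sf2*), -0.0349 to 0.33 (*Dhcr7*) and -0.11 to 0.29 (*Ebp*). Over all genes, the calls between number 2 and number 1 were 3067, and 5751 without a minimum fold, 1975 among genes with more than 1000 reads and 999 with the library labelled 1,25D3 2 as the lone library of number 2. Between number 3 and number 2 they were 1702, 3475 without a minimum fold and 633 with that lone library, and between number 3 and number 1 they were 0, 398 with DESeq2, 467 without a read filter and 2873 without the library labelled 1,25D3 3. The causes were not tested. The 28 genes had 186 to 9458 reads per library, and how far depth limits their calls was not tested.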
